A study of Mus musculus with 27 samples.

Results

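The distal end of mouse chromosome 16, a stretch that holds the transcription factor genes Ets2 and Erg and the protease gene Tmprss2, was gained in 3 steps in a single medulloblastoma that had become resistant to NVP-LDE225. The interval was taken as all probes of the DNA arrays from the one at 94701087 of build mm8 to the last probe of the chromosome, which ended at 98237087. It held 437 of the 233261 mapped probes, all of which gave a value on all 6 arrays. The members were chosen by their DNA log2 ratios, that is, by the stepped gain in 1 resistant tumour and the levels of the other 5, so every DNA value below is a description and none was tested.

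The tumours were Ptch+/-p53-/- mouse medulloblastomas grown under the skin of nude mice, and NVP-LDE225 is an antagonist of Smoothened, the membrane protein that carries the Hedgehog signal and that Ptch normally holds in check. DNA came from 1 resistant tumour at 40, 1 at 80 and 1 at 160 mg/kg/day, each dosed with NVP-LDE225 as divided daily doses, and from 3 sensitive tumours given vehicle. All were labelled as 26 days of treatment. The tumour at 160 mg/kg/day carried a title naming vehicle, while its status, treatment and dose labels named resistance to NVP-LDE225, and it was placed by its status, treatment and dose. Tumour DNA, labelled with Cy5, was set against the liver DNA of a wild-type mouse, labelled with Cy3, and each value is the log2 ratio of tumour to liver centred on the median of that array's autosomes. A log2 ratio of 0 is the level of most autosomal DNA in that tumour and a difference of 1 is a 2-fold difference in that ratio. No allowance was made for host cells in the graft, whose share is unknown. Each resistant dose was 1 tumour, so the spread between tumours at a dose is unknown.

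All 441 spots of the interval were well above background in both channels on each array, and none was saturated. The noise between neighbouring probes was 0.33, 0.30 and 0.47 (SD, log2) at 40, 80 and 160 mg/kg/day, against 0.17 to 0.23 in the vehicle tumours. The targeted genes gave no check of the labels, because the sources used here do not say which parts of them are deleted. The 3 probes of Trp53 averaged 0.02, 0.03 and -0.04 at the 3 doses and 0.25, 0.10 and 0.20 in vehicle tumours 1, 2 and 3, and the 7 probes of Ptch1 averaged between 0.03 and 0.10 in all 6 tumours.

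Extra copies of a chromosome stretch are a known way in which tumours raise the dose of genes they carry. Ets2 and Erg are members of the ETS family, whose proteins bind DNA around a GGAA core. In human prostate cancer, Erg is known as the gene that fuses to the promoter of its neighbour Tmprss2. Hedgehog signalling itself runs from Smoothened to the Gli transcription factors, and none of the genes of the interval is a core part of that route.

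In the tumour at 40 mg/kg/day the gain ran for 3.50 Mb, from 94734730 to 98237087, over 433 of the 437 probes. Segmentation of the probes by penalised least squares set 3 breakpoints in this tumour and none in the other 5. The lower step, 38 probes over 0.275 Mb from 94734730 to 95009861, averaged 0.90 ± 0.35 (SD over probes), a ratio of 1.86 to liver. The middle step, 264 probes over 2.16 Mb from 95015281 to 97172966, averaged 1.41 ± 0.34, a ratio of 2.66. The top step, 131 probes over the last 1.06 Mb from 97181619 to 98237087, averaged 2.25 ± 0.37, a ratio of 4.76. Each step towards the end of the chromosome was higher than the one before it, by 0.88 over the stretch just outside the gain, then by 0.51, then by 0.84.

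**Figure D1:**
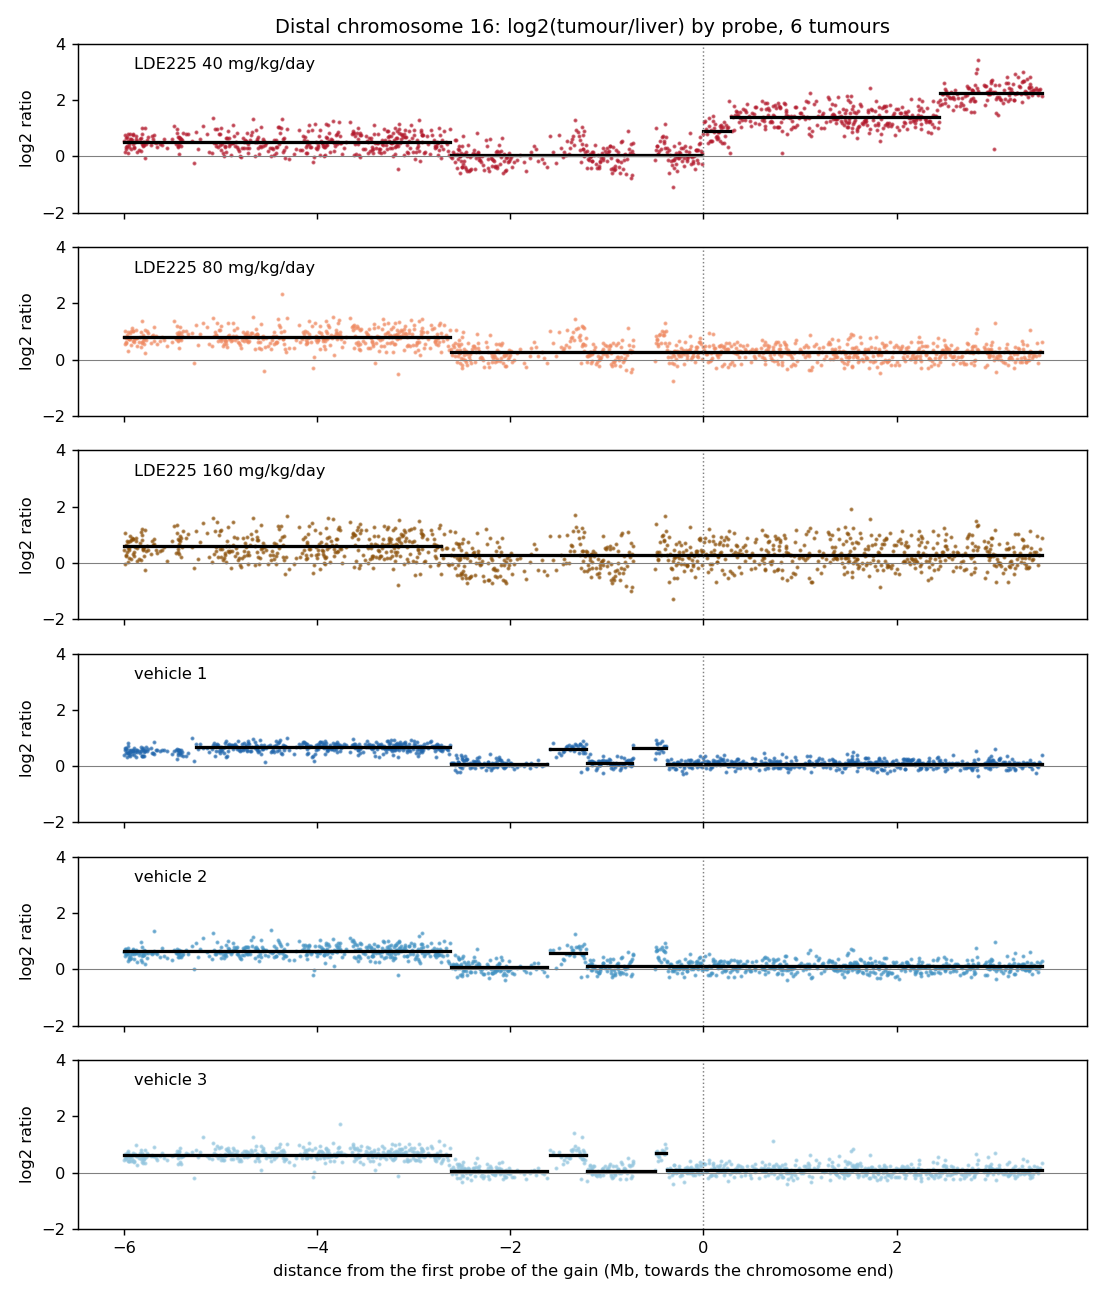
Log2 ratio of tumour to liver DNA for each probe (points) against distance in Mb from the first probe of the gain, 1 panel per tumour, with segment means as black lines. At 40 mg/kg/day the means climb through 0.90, 1.41 and 2.25 towards the chromosome end, while the other 5 tumours have 1 flat segment there.

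The stretch just outside the gain, 57 probes from 94357280 to 94720325, averaged 0.02 ± 0.32 at 40 mg/kg/day. The same stretch averaged 0.25 at 80 mg/kg/day, 0.19 at 160 mg/kg/day, and on average 0.08 ± 0.02 in vehicle tumours (SD, n = 3). The 40 mg/kg/day tumour was the lowest of the 6 outside the edge and the highest of the 6 within it. The probes nearest the start of the interval, which lie before the gain, showed no step, at 0.47 for the last probe before the interval and 0.68 for the first within it at 40 mg/kg/day.

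The steps overlapped probe by probe. In the lower step 38 of 38 probes lay above the median of the stretch outside, and 22 of 38 above its highest probe. In the middle step 249 of 264 probes lay above the median of the lower step, and 16 above its highest probe. In the top step 130 of 131 probes lay above the median of the middle step, and 35 above its highest probe. The jump into the middle step was the smallest of the 3, and it was the one that was lost when a breakpoint cost 5 times the usual penalty, where the lower and middle steps became a single segment at 1.34.

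At 80 mg/kg/day the same 433 probes averaged 0.23 ± 0.28 and at 160 mg/kg/day 0.33 ± 0.46 (SD over probes), against 0.09, 0.10 and 0.08 in vehicle tumours 1, 2 and 3, or 0.09 ± 0.01 (SD, n = 3). Both resistant values stood above the 3 vehicle values, yet neither tumour had a step there: the 3 stretches averaged 0.28, 0.23 and 0.23 in the 80 mg/kg/day tumour, while they averaged 0.37, 0.32 and 0.32 in the one at 160 mg/kg/day. Against the stretch just outside the gain, the gained stretch differed by 1.60 at 40 mg/kg/day, -0.02 at 80 mg/kg/day, 0.14 at 160 mg/kg/day, and by -0.01 to 0.02 in the vehicle tumours. The order of the 80 mg/kg/day tumour and the vehicle tumours turned round when each array was centred on chromosome 16, at 0.01 for the 80 mg/kg/day tumour and 0.10 for the vehicle mean.

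The interval was compared with the rest of the genome in windows of 1 Mb, as the 40 mg/kg/day tumour minus the mean of the 3 vehicle tumours. Of 2548 windows, 4 or 0.157% differed by more than 1, and all 4 lay in the interval. They differed by 2.32, 1.99, 1.32 and 1.32, in the windows that start at 98, 97, 96 and 95 Mb. The window from 94000001 to 95000000, which holds most of the lower step and also probes before the gain, differed by only 0.20. The highest window elsewhere, on chromosome 8 from 53 to 54 Mb, differed by 0.48. By probe, 379 of the 437 members differed by more than 1 at 40 mg/kg/day, with 0.218% of all probes past that size. These were 6 of 38 probes in the lower step, 243 of 264 in the middle step and 130 of 131 in the top step. No member did so at 80 mg/kg/day, where 0.251% of all probes did, and 8 did at 160 mg/kg/day, where 1.06% of all probes did. Since these values chose the interval, nothing is read from the contrast with the background.

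**Figure D2:**
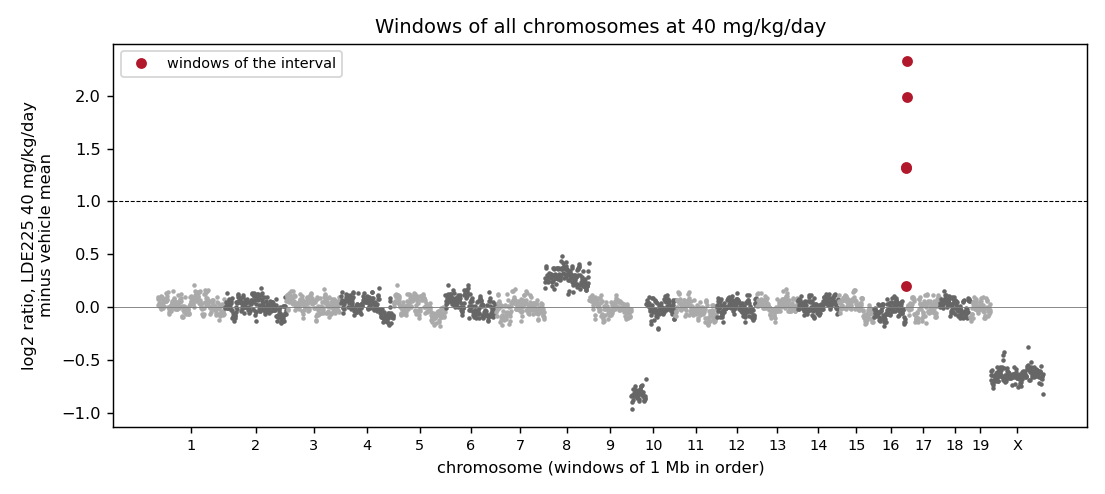
Difference in mean log2 ratio between the 40 mg/kg/day tumour and the mean of 3 vehicle tumours for each window of 1 Mb (points), by chromosome, with the dashed line at 1. The 4 windows above the line are windows of the interval, and the next highest, on chromosome 8, stands at 0.48. The interval's window from 94000001 to 95000000 lies below the line, at 0.20.

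The 40 mg/kg/day tumour was the highest of the 6 at 432 of the 433 gained probes, compared with 10.5% of all 232419 probes of the autosomes and X, and 1.46% of the 8497 probes of chromosome 16 before the interval. In the top step 129 of its 131 probes exceeded the highest probe of any of the other 5 tumours, 1.49. In the middle step only 20 of 264 probes cleared the highest value of the others, 1.91, which was a probe of Wrb at 160 mg/kg/day.

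The rise lay in the Cy5 channel. Relative to each array's autosomal median, the tumour signal at 40 mg/kg/day averaged 0.80, 1.35 and 2.02 (log2) in the lower, middle and top step. Over the same steps it lay between -0.19 and 0.28 in the other 5 tumours. The liver signal in the Cy3 channel was alike on all 6 arrays, between -0.12 and -0.07 in the lower step, -0.05 and -0.03 in the middle step and -0.24 and -0.18 in the top step. The ratio of the top step was thus above the Cy5 level taken by itself, at 2.25 against 2.02.

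**Figure D3:**
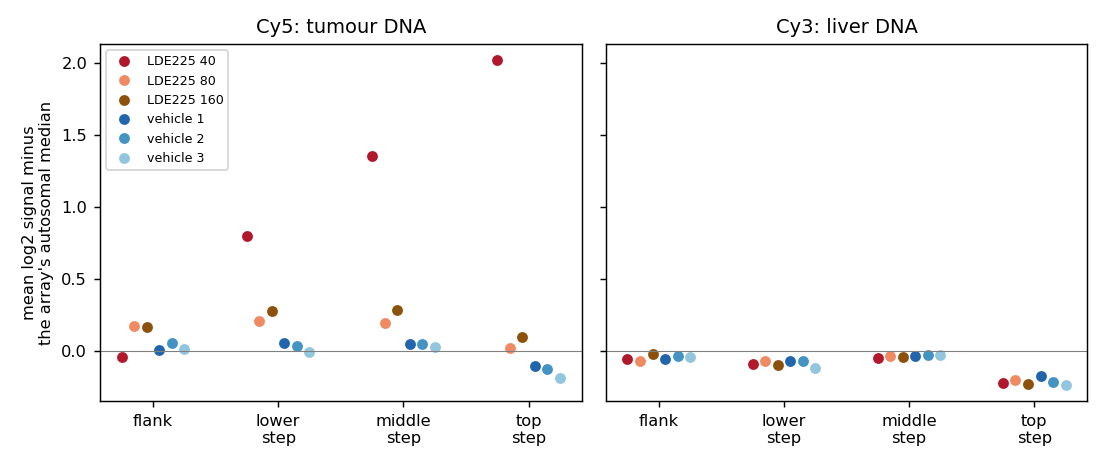
Mean log2 signal of each channel minus the array's autosomal median, for the stretch outside the gain (flank) and the 3 steps, with 1 point per tumour. The Cy5 signal of the 40 mg/kg/day tumour climbs to 2.02 while the Cy3 signal of all 6 arrays stays between -0.24 and -0.02.

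Each of the 3 breakpoints fell between a pair of neighbouring probes that carry the same gene name, in Dyrk1a, Kcnj6 and Dscam in turn. Of the 436 neighbouring pairs in the interval, 267 or 61.2% share a gene name, so a breakpoint within a gene is what most gaps of the array offer. Whether an edge lies in an exon or an intron was not determined, since no genome of build mm8 was used here. The promoters of the 3 genes are given because strand and gene order place the promoter end of each on a known side of its breakpoint. Those of Ets2 and Tmprss2, which lie wholly in the middle and in the top step, are given beside them. They are RefSeq sequences of build GRCm38.p6, whose coordinates are not those of the arrays, and run from 250 bases before to 50 bases after the annotated start. Capitals mark CGGAAG or its reverse complement CTTCCG, a form of the core that ETS proteins bind, searched on both strands.
Dyrk1a promoter, chr16:94569956-94570255, plus strand: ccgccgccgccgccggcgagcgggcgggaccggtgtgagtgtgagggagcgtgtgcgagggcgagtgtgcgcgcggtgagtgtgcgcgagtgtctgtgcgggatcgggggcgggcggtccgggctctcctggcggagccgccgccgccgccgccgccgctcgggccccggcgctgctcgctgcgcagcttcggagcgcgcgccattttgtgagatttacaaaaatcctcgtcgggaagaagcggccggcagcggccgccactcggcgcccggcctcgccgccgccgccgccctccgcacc
Kcnj6 promoter, chr16:94997647-94997946, minus strand: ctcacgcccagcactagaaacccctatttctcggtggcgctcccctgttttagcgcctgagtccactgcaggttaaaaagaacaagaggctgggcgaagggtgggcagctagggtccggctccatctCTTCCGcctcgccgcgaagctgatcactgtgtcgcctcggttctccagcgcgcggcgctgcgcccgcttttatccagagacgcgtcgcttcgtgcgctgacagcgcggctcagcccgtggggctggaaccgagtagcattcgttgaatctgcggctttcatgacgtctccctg
Dscam promoter, chr16:97170686-97170985, minus strand: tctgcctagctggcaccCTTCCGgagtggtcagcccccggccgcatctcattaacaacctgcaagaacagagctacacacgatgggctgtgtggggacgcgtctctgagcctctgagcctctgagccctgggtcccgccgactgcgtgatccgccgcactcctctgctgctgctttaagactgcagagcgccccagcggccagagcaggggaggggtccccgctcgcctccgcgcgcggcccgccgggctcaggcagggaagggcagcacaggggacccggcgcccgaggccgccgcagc
Ets2 promoter, chr16:95702157-95702456, plus strand: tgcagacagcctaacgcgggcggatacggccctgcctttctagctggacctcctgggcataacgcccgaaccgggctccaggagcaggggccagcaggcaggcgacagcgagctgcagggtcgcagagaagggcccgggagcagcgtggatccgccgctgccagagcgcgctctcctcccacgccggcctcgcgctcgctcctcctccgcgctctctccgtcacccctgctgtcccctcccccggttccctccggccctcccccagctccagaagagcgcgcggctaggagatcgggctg
Tmprss2 promoter, chr16:97611146-97611445, minus strand: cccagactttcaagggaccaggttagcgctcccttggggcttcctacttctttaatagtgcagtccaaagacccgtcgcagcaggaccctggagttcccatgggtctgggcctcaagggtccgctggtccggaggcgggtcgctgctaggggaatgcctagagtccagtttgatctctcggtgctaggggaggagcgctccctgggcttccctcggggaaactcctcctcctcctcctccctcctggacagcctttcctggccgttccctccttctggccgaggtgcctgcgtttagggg
The motif occurred once in the Kcnj6 window and once in the Dscam window, in the form CTTCCG, and in none of the other 3, while 16.9% of all 32851 promoter windows of 300 bases hold it. The windows held 54 CpG pairs in Dyrk1a, 30 in Kcnj6, 26 in Dscam, 30 in Ets2 and 13 in Tmprss2, against a median of 7.0 over all windows. For Dyrk1a the table lists 3 windows and for Kcnj6 2, and the first of each is shown. The other windows of these genes were not placed relative to the breakpoints.

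The first breakpoint lay in Dyrk1a, which encodes a protein kinase and is known for its dose sensitivity in human trisomy 21. Its gap ran for 14404 bases, from a probe that ended at 94720325 to one that began at 94734730. These neighbours stood at -0.26 and 0.80 at 40 mg/kg/day, and at 0.02 and 0.32 in the mean of the vehicle tumours. Dyrk1a runs on the plus strand, so its promoter end was outside the gain, while its probes beyond the edge were inside it. How much of the gene lies outside was not determined. Outside it had only that 1 probe, so this edge rests for its naming on a single probe of the gene. The 8 probes inside averaged 1.00 ± 0.30 at 40 mg/kg/day, 0.39 at 80 mg/kg/day, 0.53 at 160 mg/kg/day, compared with 0.18 ± 0.02 in vehicle tumours (SD, n = 3). Probes on both sides of the edge also carry the name U58494, which spans 34 probes from 94426525 to 94846241 and so overlaps Dyrk1a in the files. Its 3 probes between the start of the interval and the edge averaged 0.33, and its 8 probes beyond the edge 0.89, at 40 mg/kg/day.

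The second breakpoint lay in Kcnj6, which encodes an inwardly rectifying potassium channel of neurons. The gap of 5419 bases separated a probe at 0.12 from one at 1.45 at 40 mg/kg/day. The probe at 0.12 was the lowest of the lower step, and it was also low at 80 and 160 mg/kg/day, at -0.16 and -0.29. The probe at 1.45 stood at 0.48 and 0.45 in those tumours. In the vehicle mean these neighbours stood at -0.04 and 0.28, so they also differed on arrays with no step. The 11 probes on the middle step averaged 1.39 ± 0.27, and the 22 probes on the lower step 0.86 ± 0.38. Kcnj6 runs on the minus strand, so its promoter end lay in the middle step. The parts of the gene showed no such difference in the other tumours, at 0.27 and 0.24 at 80 mg/kg/day, 0.28 and 0.34 at 160 mg/kg/day, and 0.09 and 0.12 in the vehicle mean, with the promoter end given first.

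The third breakpoint lay in Dscam, a large gene for a cell adhesion molecule that helps neurons space their cell bodies and branches. It had 73 probes, the most of any gene in the interval. The gap of 8652 bases separated a probe at 1.21 from one at 2.02 at 40 mg/kg/day. The 13 probes on the top step averaged 2.13 ± 0.25 and ranged between 1.81 and 2.61, and the 60 probes on the middle step averaged 1.39 ± 0.30 and ranged between 0.75 and 2.06. In the other tumours the top and middle parts of the gene stood at 0.31 and 0.21 at 80 mg/kg/day, at 0.47 and 0.31 at 160 mg/kg/day and at 0.08 and 0.06 in the vehicle mean. Dscam runs on the minus strand, so its promoter end lay in the top step and most of its length in the middle step.

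**Figure D4:**
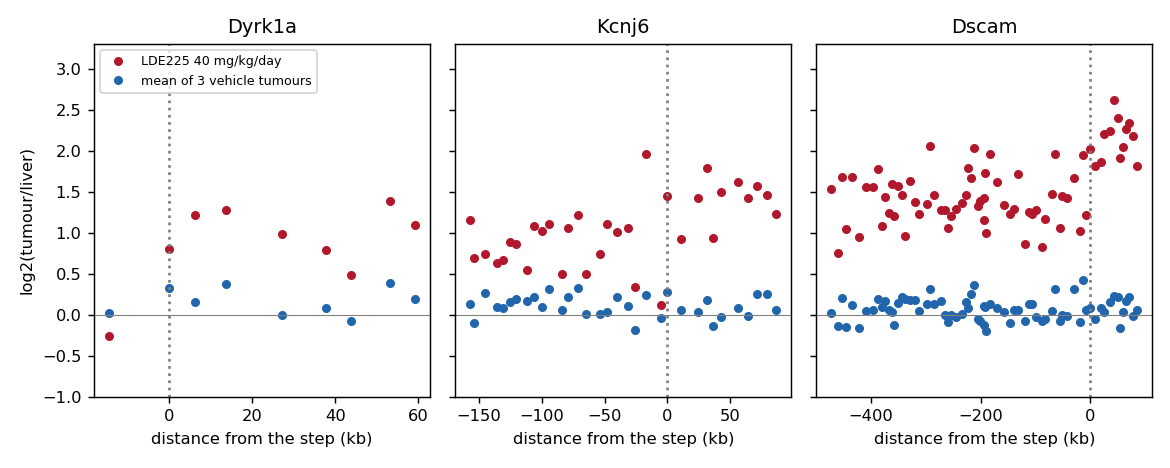
Log2 ratio of each probe of Dyrk1a, Kcnj6 and Dscam against distance in kb from the first probe after the breakpoint in that gene, for the 40 mg/kg/day tumour (red) and the mean of 3 vehicle tumours (blue). The 40 mg/kg/day probes of Dscam average 1.39 before the dotted line and 2.13 after it, and the vehicle probes stay near 0.06 and 0.08.

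The files name 40 genes in the interval, on 308 of the 437 probes, and 24 of the names match a RefSeq symbol, 7 of them through an older name. The rest are names of sequence records and are given no role. RefSeq lists 24 protein-coding genes from Dyrk1a to the end of the chromosome, of which Prdm15 and B230307C23Rik had no probe under their name. Of the 40 names, 24 lay wholly in the middle step and 12 wholly in the top step, and Dyrk1a, Kcnj6, Dscam and U58494 crossed a breakpoint. At 40 mg/kg/day the gene means of the middle step ranged between 0.73 and 2.09, and those of the top step between 2.06 and 2.71.

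Both ETS genes lay in the middle step. Erg, known in the mouse for its part in blood stem cells and vessel lining, had 23 probes that averaged 1.41 at 40 mg/kg/day, 0.27 at 80 mg/kg/day and 0.36 at 160 mg/kg/day, compared with 0.04, 0.09 and 0.03 in vehicle tumours 1, 2 and 3. Ets2, which acts downstream of the Ras and MAP kinase route, had 3 probes that averaged 1.43, 0.27 and 0.58 at 40, 80 and 160 mg/kg/day, and 0.15, 0.27 and 0.25 in the vehicle tumours. For both genes the 40 mg/kg/day tumour was the highest. For Ets2 the 160 mg/kg/day tumour also stood above the 80 mg/kg/day and vehicle tumours. At 40 mg/kg/day the Erg probes ranged between 0.12 and 1.90, and the highest Erg probe of the other 5 tumours was 0.99. The Ets2 probes ranged between 1.01 and 1.92 at 40 mg/kg/day, and the highest of the other 5 tumours was 1.15, so they overlapped.

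No other ETS gene with probes stood above the vehicle tumours in the same way. Erg and Ets2 were named when the interval was chosen by its gain. Their place above the vehicle tumours was thus fixed in advance, and nothing is read from the contrast. From a list of 26 ETS genes, 25 had probes, and Erg and Ets2 were the only members above the vehicle mean by more than 0.3 at 40 mg/kg/day, at 1.36 and 1.21. The other 23 differed by between -0.87 and 0.10, and 6 of them were below the vehicle mean by more than 0.3. Those were Elk1 and Elf4, both on the X chromosome, and Fev, Etv2, Elf3 and Spib, each with 1 probe. Over all 25699 gene names 1272 were above and 2848 below the vehicle mean by that size, and 38, or 0.148%, were above it by more than 1.

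The other named genes of the middle step, with at least 3 probes, were Kcnj15, a potassium channel gene, Brwd1, which encodes a bromodomain protein that reads acetylated chromatin, and Wrb, now called Get1, a receptor in the insertion of tail-anchored proteins into membranes. They averaged 1.54, 1.46 and 1.89 at 40 mg/kg/day, against 0.08, 0.04 and 0.32 in the vehicle mean. Pcp4, a small calmodulin-binding protein of Purkinje cells, averaged 1.45 at 40 mg/kg/day and 0.07 in the vehicle mean. Jam4, now called Igsf5 and a junction protein, averaged 1.53, against 0.07 in the vehicle mean. B3galt5, a galactosyltransferase gene, averaged 1.29, against 0.10, and Sh3bgr averaged 1.14, against 0.14. The lowest of this group was Itgb2l, an integrin-like gene, at 1.08, against -0.06 in the vehicle mean. The clone names and 4921526F01Rik, now called Lca5l, that had 3 or more probes in this step lay between 1.25 and 1.44. Every one of these genes was higher at 40 mg/kg/day than in any other tumour.

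In the top step, Bace2, which encodes a relative of the beta-secretase, had 14 probes that averaged 2.13 at 40 mg/kg/day, 0.25 at 80 mg/kg/day and 0.38 at 160 mg/kg/day, compared with 0.02, 0.06 and 0.01 in vehicle tumours 1, 2 and 3. Mx1 and Mx2, interferon-induced GTPases known for blocking virus growth and listed by RefSeq as transcribed pseudogenes in its reference mouse strain, lie on either side of Fam3b. The 2 probes of Mx1 averaged 2.71, the highest gene mean of the interval, and the 5 probes of Mx2 averaged 2.36. In the vehicle mean these were 0.34 and 0.13. With the vehicle mean subtracted, Mx1 stood at 2.37, below Zfp295 at 2.47 and Fam3b at 2.46. From a list of 21 interferon-induced genes 17 had probes, and the 15 outside the interval differed from the vehicle mean by between -0.21 and 0.17 at 40 mg/kg/day. Mx1 was named when the interval was chosen and Mx2 lies within it, so nothing is read from this contrast.

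Tmprss2, a serine protease of cell surfaces that is androgen-regulated in human prostate, had 7 probes that averaged 2.06 at 40 mg/kg/day, 0.38 at 80 mg/kg/day and 0.39 at 160 mg/kg/day, compared with 0.20, 0.23 and 0.17 in the vehicle tumours. It had the lowest gene mean of the top step, with 1 probe, at 97741640, that stood at 0.27 at 40 mg/kg/day. Without that probe the other 6 averaged 2.36, none below 2.05. The same probe stood at -0.02 and -0.07 at 80 and 160 mg/kg/day and between 0.02 and 0.15 in the vehicle tumours. A probe of Erg at 95544088 was alike, at 0.12 at 40 mg/kg/day, and it was the 1 gained probe at which that tumour was not the highest, since vehicle tumour 1 had 0.42. Without it Erg averaged 1.47 over 22 probes, none below 0.81.

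ORF9, now called Fam3b and a secreted protein of pancreatic islets, averaged 2.53 at 40 mg/kg/day, against 0.07 in the vehicle mean. Beyond Tmprss2 the gain ran on to the end of the array. Ripk4, a kinase of skin differentiation, averaged 2.24 at 40 mg/kg/day, against 0.05, and BC072597 averaged 2.43, against 0.07. The file's 5830404H04Rik, now called C2cd2, had 10 probes that averaged 2.45, against 0.09. Zfp295, now called Zbtb21 and a zinc finger gene, averaged 2.58, against 0.11, and AK043155, the last name on the chromosome, averaged 2.35, against 0.06. Within C2cd2 by gene order, RefSeq places the microRNA gene Mir6964, whose mature forms are given. It was taken by name, and other microRNAs of the gained stretch were not counted. Capitals mark the seed, bases 2 to 8.
mmu-miR-6964-5p, chr16:97877266-97877286, minus strand: uUGGGGUGugagacuggaaac
mmu-miR-6964-3p, chr16:97877233-97877252, minus strand: uUUCUUGUcuuccacucuag

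**Figure D5:**
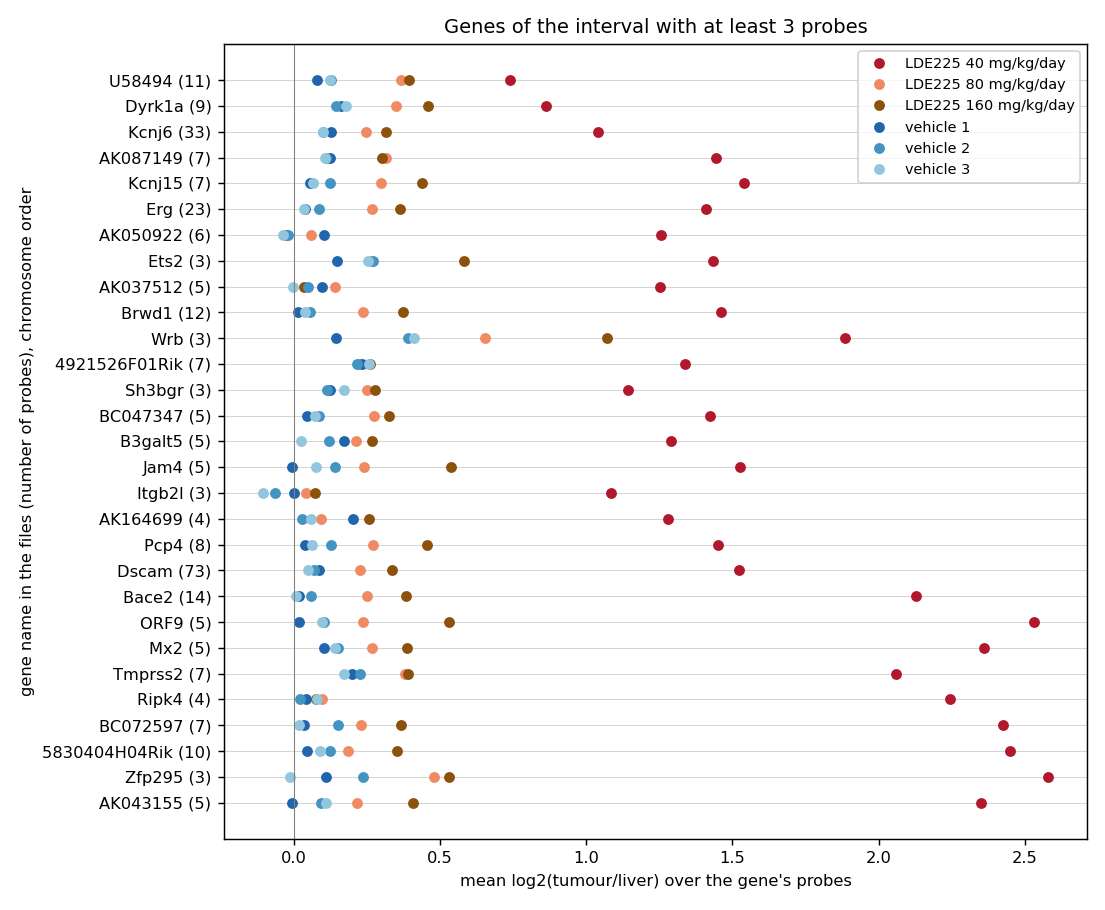
Mean log2 ratio over the probes of each gene with at least 3 probes (number in brackets) in chromosome order from top to bottom, with 1 point per tumour. The 40 mg/kg/day points stand between 1.08 and 1.89 for the genes of the middle step and between 2.06 and 2.58 for those of the top step, and the other 5 tumours reach at most 1.07.

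Much of the scatter within a step recurred on other arrays. Over the 433 gained probes, the deviations from the step means at 40 mg/kg/day correlated at 0.81 with those at 80 mg/kg/day and at 0.85 with those at 160 mg/kg/day. With vehicle tumours 1, 2 and 3 the correlations were 0.11, 0.72 and 0.62. The arrays share their probes and the liver DNA, so these are descriptions over probes. The probes of Wrb, for example, averaged 1.07 at 160 mg/kg/day and 0.65 at 80 mg/kg/day, in tumours with no step there, and Wrb was also among the highest genes of the middle step at 40 mg/kg/day. Over the 24 genes of the middle step the SD of the gene means was 0.29. It was 0.13 after the 80 or the 160 mg/kg/day tumour was subtracted gene by gene, and 0.23 after the vehicle mean was. For the 12 genes of the top step it was 0.19 before. After subtraction of the 80 mg/kg/day tumour, the 160 mg/kg/day tumour and the vehicle mean it was 0.17, 0.20 and 0.17. Wrb also stood above Erg in each of the other 5 tumours, whereas the rise between the steps was seen at 40 mg/kg/day only.

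On the side towards the centromere, a pair of short stretches stood above liver in all 6 tumours. Their bounds are those of segments of vehicle tumour 3, which also enters the vehicle mean. No resistant tumour had either stretch as a segment of its own. The stretch from 93147926 to 93513280, with 31 probes, averaged 0.45, 0.73 and 0.54 at 40, 80 and 160 mg/kg/day, against 0.61 ± 0.02 in vehicle tumours (SD, n = 3). The stretch from 94238889 to 94349853, with 16 probes, averaged 0.49, 0.82 and 0.68, against 0.66 ± 0.04. The stepped gain began beyond both, and unlike them it was seen in 1 tumour.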

How the data were processed

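DNA of 6 tumours was hybridised with the liver DNA on 2-colour Agilent arrays. The files deposited by the authors come from the scanner program Feature Extraction 9.5.3.1 and give probe positions on mm8, per the file headers. Of the deposited intensity columns, those used are, per the file headers, the program's processed Cy5 and Cy3 signals, from which it had subtracted background and which it had normalized between dyes. The authors' deposited value table holds log10 ratios of the same arrays, which correlated at 0.9996 or more with the scanner's log ratios over 235402 features, in the same direction and with column medians between -0.0109 and -0.00158. It served as an alternative only.

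The log2 ratio of the processed intensities was taken and the median over autosomal probes subtracted from it, array by array, with no loess or quantile step. Spots for controls and spots marked as outliers were dropped, and repeats of a probe were averaged. Chromosome 16 was segmented on each array by penalised least squares, with the noise taken from neighbouring probes and each breakpoint charged 3 times the usual penalty. The segmentation was tested on simulated steps with independent noise, where recovery was required of the outer and top breakpoints but not of the middle one. Windows of 1 Mb held at least 5 probes, and a difference above 1 (log2) counted as past the fold. The stretch outside the gain begins where the last segment of vehicle tumours 1 and 3 begins (that of vehicle tumour 2 begins earlier, at 93524897), which was chosen after seeing the data. Each array was on its own slide, so slide and tumour cannot be told apart.

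The interval, its genes and the lists of ETS and interferon-induced genes were chosen with earlier results of these data known. Genes named are Erg, Ets2, Dscam, Mx1, Tmprss2, those with at least 3 probes in the interval and those at a breakpoint. Clones were summarised, and names of single probes in the text were added after their values were seen. Probe sets of the 21 RNA arrays were not tied to genes by the tables used here, so the planned RNA tests were not made and expression is not used here. RefSeq tables of GRCm38.p6 gave current names, strands and sequences only. Python 3.11.15 with numpy 2.4.6, pandas 2.3.3 and matplotlib 3.10.9 was used, with limma 3.58.1 in R 4.3.3 for the normexp alternative (offset 50). The number of arrays limits the precision.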

Additional observations from a re-analysis of the deposited data

How the results depend on the processing

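No value changed sign under the 65 alternatives computed, and 55 of them stayed close to the main value. Close means within the half-width of a 95% interval of the mean over probes for a single tumour, within 1 SD between tumours for the vehicle mean, and within 1.5 times for a count. That half-width treats probes as independent. The scanner's log ratios, the authors' value table, kept outlier spots and the filter on background reuse nearly the same values. These settings could hardly move a result, so the count of 55 does not measure robustness. With normexp signals the gained stretch averaged 0.106 at 80 mg/kg/day and 0.055 in the vehicle tumours. Centred on chromosome 16, the middle and top steps at 40 mg/kg/day were 1.473 and 2.316, the gained stretch was 0.014 at 80 mg/kg/day, and it was 0.099 in the vehicle tumours. The vehicle value was also 0.098 when centred on all probes and 0.076 as a median over probes. Leaving out each vehicle tumour in turn gave vehicle values of 0.082 to 0.091 and 4 windows above 1 each time. A penalty of 1 times the usual gave 6 breakpoints at 40 mg/kg/day, with all 3 added ones in the top step. They were a pair on either side of the low Tmprss2 probe, and 1 between 97543641 and 97551914. There the mean was 2.08 before and 2.46 after. A penalty of 5 times the usual gave 2 breakpoints. Normexp signals gave 4, with the added one at another place in the top step, between 97793708 and 97800802. The normexp mean was 2.17 before it and 2.48 after. Windows of 0.5 Mb gave 7 above 1. With the vehicle mean subtracted at each probe, an alternative chosen after seeing the data, 3 breakpoints remained and the one in Kcnj6 moved to 95039551, 2 probes on. No paired analysis was possible because the labels of the resistant DNA tumours carry no animal number and no label ties a resistant tumour to a vehicle tumour, and no RNA result was computed. The RNA alternatives (offset, filter, normalization, trend, weights, samples in the fit, replicate block, left-out replicates and vehicle times) were not run. With 1 tumour per dose, the spread at a dose is unknown.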
